A study of Mus musculus with 17 samples.

Results

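The effect of losing Aire was compared between perinatal and adult medullary thymic epithelial cells. For each gene the log2 difference between Aire-knockout (KO) and wild-type (WT) cells was taken at each age, and the adult effect was subtracted from the perinatal effect. The result is called the difference of effects: it is positive where the knockout left a gene relatively higher in perinates than in adults, and negative where it left it relatively lower. The comparison used 12 of the 17 arrays of the series, chosen by their titles, with 3 arrays in each of 4 groups: perinate KO, perinate WT, adult KO and adult WT. All were hybridised with RNA of sorted GFP+ cells, and the other arrays held GFP- cells. In the fit the GFP- arrays served to estimate the spread between replicates. They also counted, with the 12, in the choice of probe sets and of the genes tested.

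All 4 groups were of the C57BL/6 background and carried the Adig transgene, in which Aire regulatory sequence drives an Igrp-GFP reporter, so KO and WT cells were sorted on the same reporter and not on Aire itself. The sort took CD45-, Ly51- cells of the thymic medulla that were high in MHC class II and positive for GFP. Adults were 5 weeks old. The labels of the perinates give 3 days and the series text gives 0 to 3 days. Every sample was labelled as of mixed sex. The labels describe neither the knockout allele nor whether the arrays of a group came from separate mice, litters or pools, so a p-value speaks only to how far these samples spread, and that spread may be technical. In RNA from sorted populations, fewer cells that express a gene and less RNA per cell cannot be told apart.

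Aire is a transcriptional regulator of medullary thymic epithelial cells. It induces transcripts that are otherwise restricted to other organs, so that developing T cells meet self-antigens before they leave the thymus. T cells that react to them are deleted or become regulatory T cells, and in mice Aire is known to be needed for lasting tolerance mainly in the perinatal period.

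The labelled cell type was checked first against its markers. The probe set of Aire averaged 5272 ± 1047 in perinate KO, 4773 ± 629 in perinate WT, 4927 ± 284 in adult KO and 5097 ± 971 in adult WT cells (linear intensity, mean ± SD, n = 3 each). Its difference of effects was 0.16 (95% interval -0.45 to 0.78, adjusted p = 0.807). This probe set did not separate KO from WT cells and does not check the genotype labels. G6pc2, whose product Igrp is part of the reporter, had a difference of effects of 0.11 (95% interval -0.32 to 0.53, adjusted p = 0.82). Cd74, the MHC class II invariant chain, averaged 11516 ± 222 in perinate KO, 11323 ± 315 in perinate WT, 11240.5 ± 444 in adult KO and 11128 ± 68.4 in adult WT cells. Epcam, an epithelial adhesion molecule, averaged 3111 ± 341 in perinate KO, 3349 ± 629 in perinate WT, 3872 ± 193 in adult KO and 3547 ± 20.6 in adult WT cells. Ptprc, which encodes the CD45 used to exclude blood cells, averaged 129.8 ± 16.7 in perinate KO, 137 ± 35 in perinate WT, 191 ± 95.1 in adult KO and 151 ± 46 in adult WT cells. The median of all probe sets lay between 144.5 and 157.1 on each array.

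Perinate KO arrays 2 and 3 stood apart in Y-linked genes, although all samples were labelled as of mixed sex. Eif2s3y, a Y-linked translation factor, had 377, 18.7 and 15.7 on the perinate KO arrays, 545, 329 and 386 on the perinate WT arrays, 307, 534 and 349 on the adult KO arrays and 342, 339.8 and 418 on the adult WT arrays. Xist, the RNA that silences an X chromosome, had 3638, 5203 and 5167 on the perinate KO arrays, 2272, 2991 and 3294 on the perinate WT arrays, 2426, 2778 and 3645 on the adult KO arrays and 3229, 4211 and 2104 on the adult WT arrays. Array 1 also differed from arrays 2 and 3 in some genes that are not sex-linked. Egr1, an immediate-early gene, had 2802, 1558 and 1634 on the perinate KO arrays, but its adult WT arrays spread about as widely (3013, 1710 and 1899). Of the 9 tested sex-linked genes, 0 passed limma's test of the difference of effects and 4 had an unadjusted p under 0.05 (Eif2s3y, -3.18, adjusted p = 0.139; Xist, 0.78, adjusted p = 0.219). The fit was therefore repeated with array 1 alone in the perinate KO group, whose spread is then assumed to equal that of the other groups. That fit has 9 residual degrees of freedom, against 11 with all arrays, and a group of 1 array. A call can be lost in it with little change in the difference, so a lost call does not by itself place an effect in arrays 2 and 3. Values of that fit stand beside the genes described in full. The fit was also repeated with dim values, those under the 40th percentile of their array (96.2 to 112 on these arrays), set to that percentile, and its value is given for each named gene whose call it ended or whose difference it changed by more than 1.5 times. The deposited values carry no detection call, so where all 3 arrays of a group were dim, a fold is computed with these raised values and written as a lower bound.

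Of 13842 genes tested, 167 (1.21%) had a KO effect that differed between the ages at an adjusted p under 0.05 in limma's moderated test. The difference of effects was positive for 100 of them (0.722% of the genes tested) and negative for 67 (0.484%). Among the called genes 46 with a positive and 29 with a negative difference exceeded 2-fold. Over all genes the median difference was 0.02, the quartiles were -0.18 and 0.22, and 2398 genes had an unadjusted p under 0.05. At the threshold, Snora69, Snord22 and Tff3 (adjusted p = 0.0479 for Tff3) lay just inside, and A830019P07Rik (0.0503), Atp5l (0.0504) and Abhd14a (0.051) just outside. The KO effect within each age, which makes up the difference, was called lower in KO for 13% and higher for 13.5% of genes in perinates, and lower for 10.8% and higher for 9.06% in adults.

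**Figure D1:**
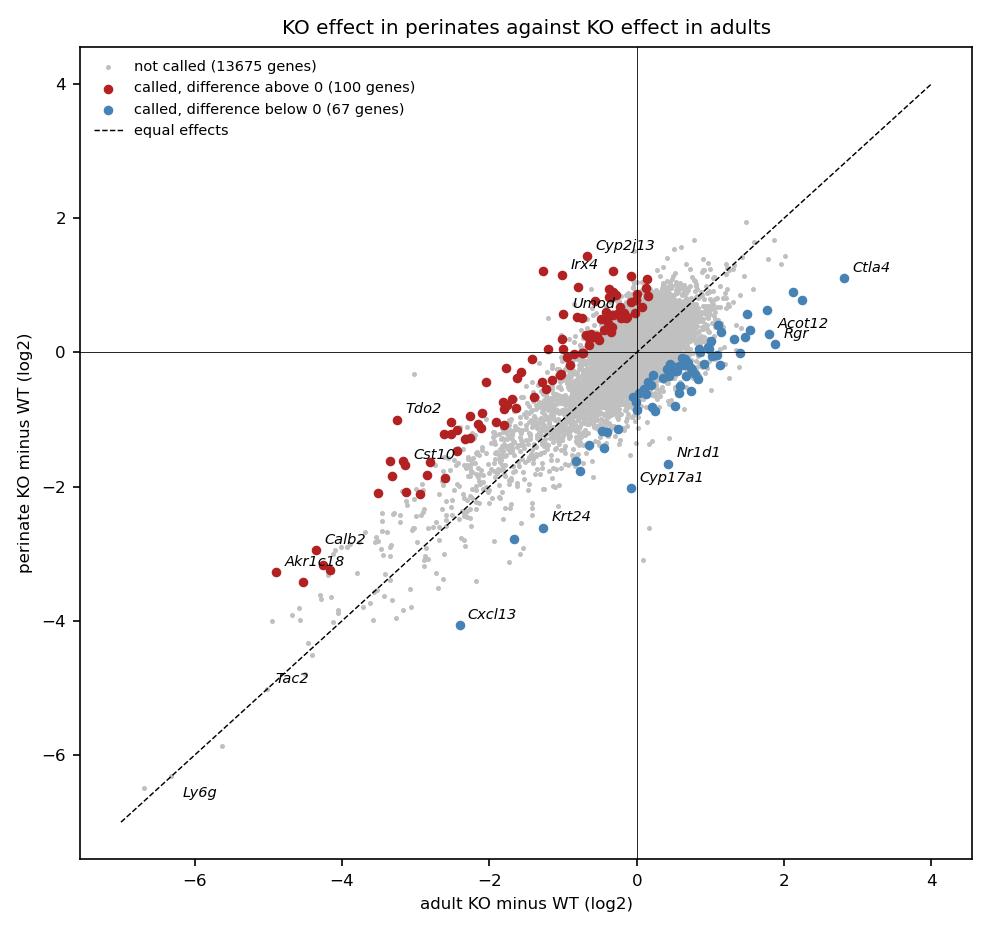
KO minus WT effect (log2) in adults on the x axis and in perinates on the y axis, 1 point per tested gene; the 167 called genes are coloured by the sign of the difference of effects, and the line marks equal effects. The called genes with a positive difference lie above the line and those with a negative difference below it, and Tdo2 and Akr1c18 are examples that fell at both ages and further in adults.

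The called genes were sorted by the calls of their KO effects at each age, which come from the same arrays, so the sorting describes them and is no further test. The largest group, with 40 genes, fell in KO cells at both ages and further in adults. Another 9 fell at both ages and further in perinates. In adults alone 21 fell and 33 rose, and in perinates alone 16 fell and 25 rose. The remaining genes were 6 that rose at both ages, all further in adults, and 17 that were called in opposite directions. Of all 13842 genes tested, 18 had calls in opposite directions at the ages, and 17 of these 18 are among the 167.

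The same difference can be read as the age difference of KO cells minus that of WT cells. Among the 100 genes with a positive difference, the age difference was larger in size in WT than in KO cells for 63, and the perinate and adult arrays did not overlap in KO cells for 59 and in WT cells for 84. Among the 67 with a negative difference, it was larger in WT cells for 17, and the ages did not overlap in KO cells for 59 and in WT cells for 46. Over all genes tested, the ages did not overlap in 45.7% in KO cells and 39.7% in WT cells. The age differences behind the positive calls lay more often in the WT arrays and the negative calls more often in the KO arrays, but the calls were made on these same arrays and this split was not tested.

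**Figure D2:**
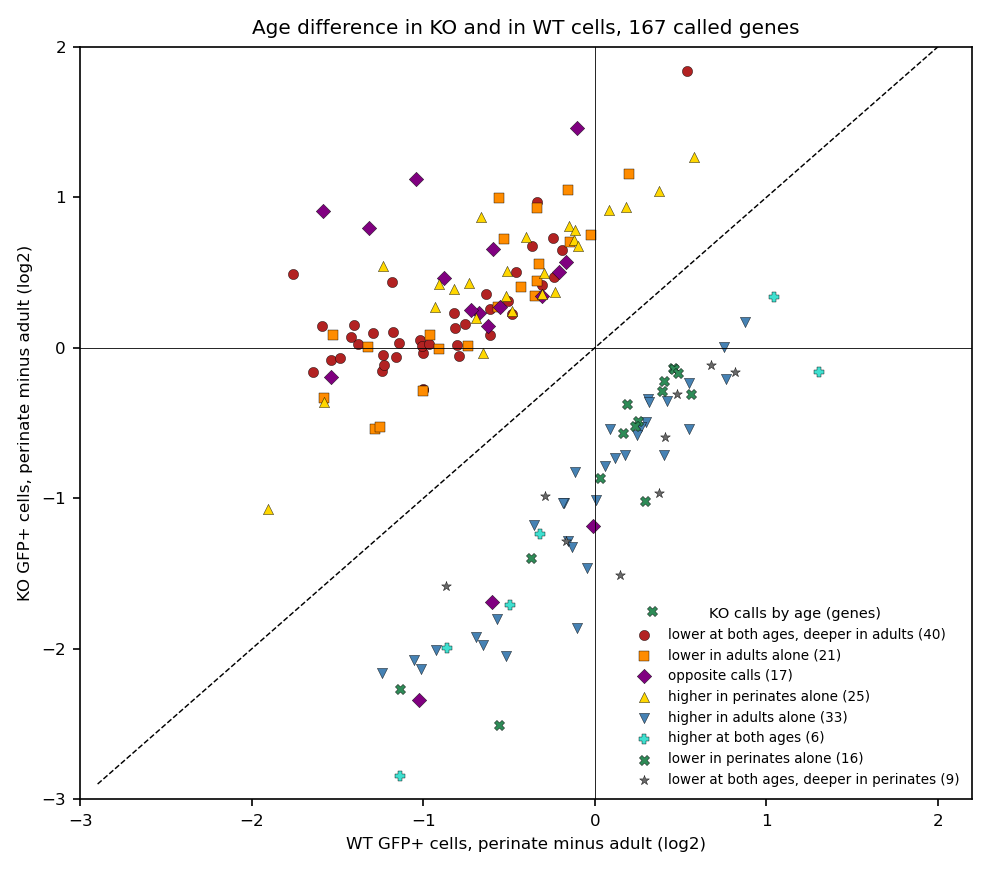
Perinate minus adult difference (log2) in WT cells on the x axis and in KO cells on the y axis for the 167 called genes; colour and marker give the pattern of KO calls at each age, and the dashed line marks equal age differences. The genes that fell at both ages and further in adults lie mostly at negative WT age differences with KO differences near 0.

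The 40 genes that fell at both ages and further in adults included transcripts known from other organs. Tdo2, tryptophan 2,3-dioxygenase, which opens tryptophan breakdown in liver, had 111, 81.7 and 98.5 on the perinate KO arrays, 131, 270.1 and 203 on the perinate WT arrays, 69.4, 89 and 52.2 on the adult KO arrays and 563, 724 and 681 on the adult WT arrays. The KO arrays of both ages overlapped with each other and lay below their WT arrays, and every adult WT array lay above every perinate WT array. The fall was 2.00-fold in perinates and at least 6.39-fold in adults, where all KO arrays were dim, with a difference of effects of 2.25 ± 0.32 (log2, estimate ± SE, adjusted p = 0.00462). With perinate KO array 1 alone it was 2.45 (adjusted p = 0.0169).

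Cst10, a cystatin of the cysteine protease inhibitor family, had 40.3, 34.2 and 33.6 on the perinate KO arrays, 108, 121 and 117 on the perinate WT arrays, 36.3, 39.1 and 38.5 on the adult KO arrays and 306, 315 and 387 on the adult WT arrays. All 6 KO arrays lay below all WT arrays, and the WT groups did not overlap. Its difference of effects was 1.46 ± 0.17 (adjusted p = 0.000838; 0.00704 with perinate KO array 1 alone). Calb2, the calcium-binding protein calretinin of neurons, had 35.4, 36.2 and 37.5 on the perinate KO arrays, 319, 301 and 228 on the perinate WT arrays, 36.7, 35.3 and 35.1 on the adult KO arrays and 606, 841 and 756 on the adult WT arrays. The KO arrays of both ages overlapped and lay below all WT arrays, and the WT arrays of adults were all above those of perinates. Its difference was 1.41 ± 0.23 (adjusted p = 0.00701), and with perinate KO array 1 alone it was 1.37 and the call was lost.

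Nppa, the precursor of atrial natriuretic peptide, had 83.2, 75.9 and 71.7 on the perinate KO arrays, 195, 146 and 202 on the perinate WT arrays, 62.4, 75.1 and 78.8 on the adult KO arrays and 384, 443 and 497 on the adult WT arrays, with KO groups that overlapped and WT groups that did not. Its difference was 1.39 ± 0.21 (adjusted p = 0.00652; 0.0285 with perinate KO array 1 alone). Akr1c18, which inactivates progesterone, had 50, 53.4 and 68.3 on the perinate KO arrays, 401, 675 and 611 on the perinate WT arrays, 45.1, 40.1 and 40.7 on the adult KO arrays and 1057, 1203 and 1530.4 on the adult WT arrays. All 6 KO arrays were dim, and the fall was at least 5.59-fold in perinates and at least 12.2-fold in adults. The difference of 1.62 ± 0.31 (adjusted p = 0.022) lost its call without perinate KO array 3, perinate WT array 5, adult KO array 2 or adult WT array 8 (adjusted p up to 0.0624). The call was also lost with perinate KO array 1 alone, where the difference was 1.44.

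**Figure D3:**
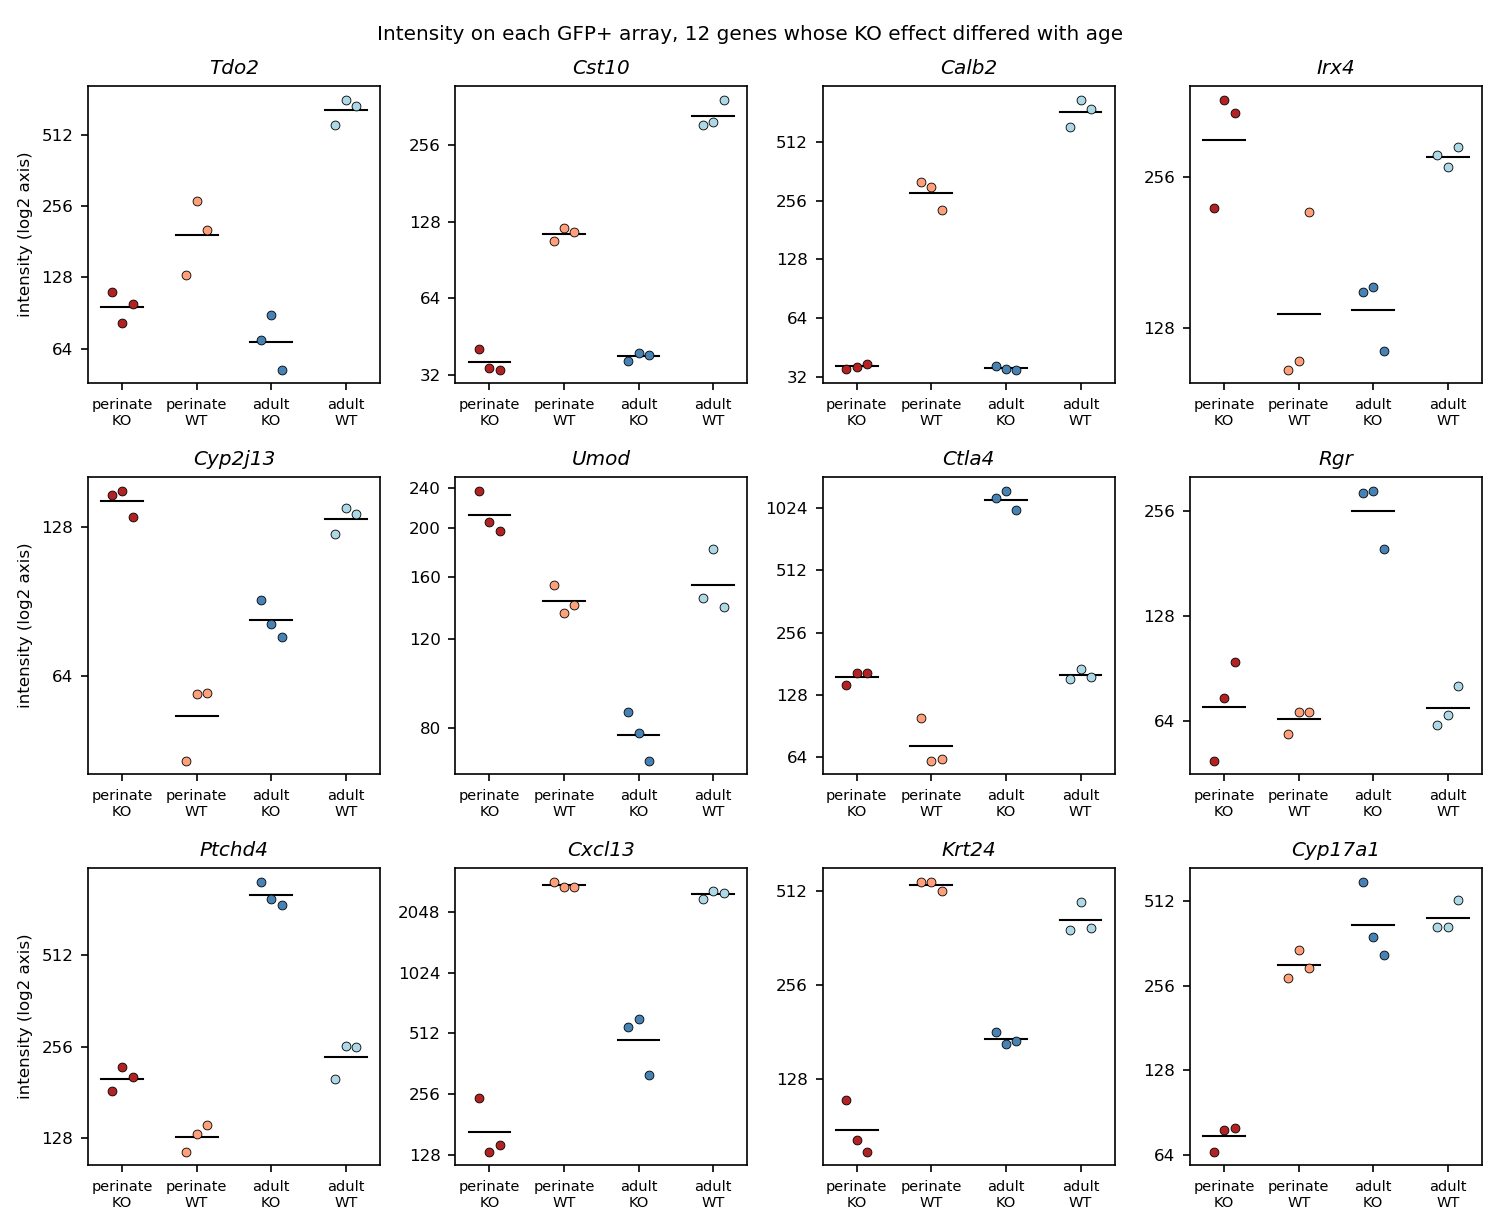
Linear intensity (log axis) of 12 called genes on each of the 12 arrays, as points, with the mean of the log2 values of each group as a bar, in the order perinate KO, perinate WT, adult KO and adult WT. For Tdo2 and Cst10 the WT groups stand apart while the KO groups are low at both ages; for Ctla4, Rgr and Ptchd4 the adult KO arrays stand above the other groups; for Cyp2j13 and Irx4 the KO arrays lie above WT in perinates and below WT in adults.

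The other called genes of this kind were grouped by organ. Among 31 tested gut and stomach genes, 6 were called, all positive, with a median difference of 0.33: Tff1 (0.87) and Tff3 (1.05), the trefoil peptides of mucus, Pgc (0.91), a pepsinogen, Lipf (1.49), gastric lipase, Fabp2 (1.08), an enterocyte fatty acid carrier, and Cck (0.98), cholecystokinin. Among 23 tested liver genes 3 were called, all positive, with a median of 0.41 and 21 of 23 above 0: Tdo2, Apob (0.95), the main protein of low-density lipoprotein, and Cps1 (0.99), the entry enzyme of the urea cycle. Of these, Fabp2, Tdo2 and Cps1 kept their calls in each of the 12 fits that left out 1 array, while Tff3 and Lipf kept theirs in 1 each, Tff1 in 2, Pgc in 3, and Apob and Cck in 7 each. With dim values at the percentile, the calls of Fabp2 (0.0365, adjusted p = 0.876), Cps1 (0.22, adjusted p = 0.258), Lipf (0.88, adjusted p = 0.14) and Cck (0.19, adjusted p = 0.518) were lost.

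Fabp2 had 19.8, 25.3 and 23.1 on the perinate KO arrays, 49.8, 47.9 and 45 on the perinate WT arrays, 26.3, 26.4 and 22.9 on the adult KO arrays and 112, 133 and 94.5 on the adult WT arrays, with the adult WT arrays above the rest and the KO arrays of both ages overlapping. Cps1 had 54.8, 50 and 55.1 on the perinate KO arrays, 81.9, 103 and 76.3 on the perinate WT arrays, 39.7, 40.6 and 44.6 on the adult KO arrays and 122, 148 and 133 on the adult WT arrays, and its KO arrays were dim at both ages, as were those of Fabp2. Their differences had an adjusted p of 0.0144 and 0.0112, and both calls were lost with perinate KO array 1 alone (differences of 0.895 and 1.03). Of 17 tested pancreas and islet genes, Iapp, islet amyloid polypeptide, was the single call (1.30, adjusted p = 0.0399, kept in 1 of 12; 1.08, adjusted p = 0.0533 with dim values at the percentile). Of 17 tested salivary, lacrimal and airway genes, Cst10 and Bpifb2 (0.70), a secreted lipid-binding protein, were called, and the median was 0.62. Of 26 brain and neuropeptide genes Calb2 alone was called and the median was -0.03, and of 25 muscle genes Actc1 (0.97), cardiac actin, alone was called with a median of -0.12. Set against 1.21% of all genes, 37 of the 635 tested genes on 41 lists were called (5.83%), but those lists were chosen with earlier results of these data known.

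Other members of the group were proteases and enzymes. Mcpt4 and Mcpt2, neighbouring mast cell protease genes whose probes may cross-hybridise, had differences of 1.49 (adjusted p = 0.0067) and 1.12 (adjusted p = 0.00747). Klk5, a kallikrein of skin, had 1.42 (adjusted p = 0.0274), kept in 5 of 12. Aspn, asporin of cartilage matrix, had 1.55 (adjusted p = 0.00821), Elobl, a relative of elongin B, 1.73 (adjusted p = 0.00701) and Xcl1, a chemokine that draws dendritic cells, 0.99 (adjusted p = 0.0251), the last kept in 6 of 12 and lost with perinate KO array 1 alone (adjusted p = 0.204). With dim values at the percentile, Mcpt4 (0.19, adjusted p = 0.488) and Aspn (0.71, adjusted p = 0.0572) lost their calls. Of the 40 genes, 26 were dim on all 6 KO arrays, compared with 7.29% of all genes tested. Among all 457 genes at least 2-fold lower in KO cells at both ages, 282 were dim on all 6 KO arrays. Dim KO arrays were therefore not particular to the called genes. With dim values at the percentile, 25 of the 40 kept their calls, and 39 kept their sign.

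Most genes with a strong fall at both ages had no called difference. Among 457 genes that were at least 2-fold lower in KO cells at both ages, 27 were called deeper in adults and 3 deeper in perinates, the median difference was 0.20 and 305 lay above 0. Among 133 that were at least 4-fold lower at both ages, 8 were called deeper in adults and 1 in perinates. The genes of the 133 with a difference nearest 0 included Ly6g, a neutrophil surface antigen (0.01, 95% interval -0.45 to 0.47), and Tac2, the tachykinin neurokinin B precursor (0.01, -0.64 to 0.65). Ly6g had 31.9, 25.9 and 29.8 on the perinate KO arrays, 2083, 2362 and 2536 on the perinate WT arrays, 27.3, 32.7 and 29 on the adult KO arrays and 2081, 2479.7 and 2603 on the adult WT arrays, with a fall of at least 23.6-fold in perinates and at least 23.3-fold in adults. Gal, galanin, had a difference of -0.01 (-0.42 to 0.40), Il5, an eosinophil growth factor, -0.00188 (-0.71 to 0.71), and Il9, a growth factor of mast cells, 0.00181 (-0.64 to 0.64). All 5 of these genes were dim on all 6 KO arrays, so that a difference between KO arrays at the dim end could not be told, and with dim values at the percentile the difference of Il5 was 0.53. Differences inside these intervals could not be detected.

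In adults alone, 21 called genes fell in KO cells. Mrc1, the macrophage mannose receptor, had 183, 155 and 178 on the perinate KO arrays, 156, 227 and 174 on the perinate WT arrays, 143, 173 and 201 on the adult KO arrays and 456, 544 and 389 on the adult WT arrays. Only the adult WT group stood apart, and the other groups overlapped. Its fall was 2.69-fold in adults, with a perinatal effect of -0.09 (adjusted p = 0.685) and a difference of 1.33 ± 0.22 (adjusted p = 0.00724; 0.052 with perinate KO array 1 alone). Of 21 tested dendritic cell and macrophage markers, Mrc1 was the only call and the median difference was 0.02. The summed linear level of these markers was 8542 to 8902 on the perinate KO arrays, 11451 to 13120.0 on the perinate WT arrays, 11378 to 12315 on the adult KO arrays and 16924 to 17823 on the adult WT arrays, so it was lower in KO cells at both ages, and its part in the Mrc1 result was not tested. Among the defining markers, Adgre1 averaged 52 ± 3.23 in perinate KO, 122 ± 36.6 in perinate WT, 52.6 ± 10.6 in adult KO and 201 ± 24.4 in adult WT cells. Its KO means lay under the 40th percentile of these arrays (96.2 to 112), so its presence in KO cells could not be told.

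Gm7982, a predicted gene with 12 probe sets, had 32.3, 37 and 31.6 on the perinate KO arrays, 42.2, 41.4 and 54.2 on the perinate WT arrays, 31.6, 31.1 and 32.4 on the adult KO arrays and 87.7, 175 and 147 on the adult WT arrays. Its adult WT arrays stood above all others, and the difference was 1.61 ± 0.26 (adjusted p = 0.0067). With perinate KO array 1 alone the difference was 1.55 and the call was lost. With dim values at the percentile it was 0.29 and the call was lost (adjusted p = 0.378). All 12 probe sets had a positive difference, from 0.598 to 2.32, and near-identical copies may share their signal. Cd109, a surface protein that binds TGF-beta, had 122, 101 and 97.5 on the perinate KO arrays, 129, 155 and 111 on the perinate WT arrays, 58.4, 61 and 48.6 on the adult KO arrays and 172, 149 and 174 on the adult WT arrays. Its adult KO arrays lay below all other arrays, and the WT groups overlapped, with a difference of 1.27 ± 0.22 (adjusted p = 0.00875; 0.031 with perinate KO array 1 alone). This call too was lost with dim values at the percentile (0.40, adjusted p = 0.219). Lypd8, a secreted protein of the colon epithelium, differed by 1.25 (adjusted p = 0.0251), and the neighbouring gene 1810065E05Rik, which fell at both ages, by 1.10 (adjusted p = 0.00509). Abca13, a lipid transporter (1.55), Vil1, villin of the intestinal brush border (0.73), and Dll4, a Notch ligand of cortical epithelium (0.72), kept their calls in 1, 2 and 1 of the 12 fits that left out 1 array, and Abca13 also lost its call with dim values at the percentile (1.00, adjusted p = 0.118).

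Calls in opposite directions at the ages were made for 17 genes, 14 with a rise in perinates and a fall in adults. Cyp2j13, a cytochrome P450 of family 2, had 148, 151 and 134 on the perinate KO arrays, 43.4, 59 and 59.2 on the perinate WT arrays, 91.3, 81.7 and 76.8 on the adult KO arrays and 124, 139.7 and 135 on the adult WT arrays. The KO arrays lay above the WT arrays in perinates and below them in adults, without overlap, and the perinate WT and adult KO arrays were dim. The difference of 2.11 ± 0.21 had the smallest adjusted p of all genes (0.000238) and kept its call without any 1 array (adjusted p up to 0.00177) and with perinate KO array 1 alone (0.00704). With dim values at the percentile the difference was 0.76 (adjusted p = 0.0237). Of 12 tested family 2 genes it was the single call, the median was -0.16, and probes of near-identical Cyp2j genes may share signal.

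Umod, uromodulin, the most abundant protein of urine, had 238, 205 and 197 on the perinate KO arrays, 154, 135 and 141 on the perinate WT arrays, 86.2, 78 and 68.8 on the adult KO arrays and 145, 181 and 139 on the adult WT arrays. The WT groups overlapped and the KO groups did not, with KO above WT in perinates (1.49-fold) and below WT in adults, where the KO arrays were dim (at least 1.51-fold). The difference was 1.57 ± 0.21 (adjusted p = 0.00358; 0.0146 with perinate KO array 1 alone). Irx4, an Iroquois homeobox factor of the heart ventricle, had 222, 364 and 343 on the perinate KO arrays, 106, 109.8 and 218 on the perinate WT arrays, 151, 154 and 115 on the adult KO arrays and 282, 267 and 293 on the adult WT arrays. KO lay above WT in perinates and below WT in adults on every array, with perinate WT array 7 above the other perinate WT arrays. The difference of 2.17 ± 0.32 (adjusted p = 0.00542) was 1.72 with perinate KO array 1 alone (adjusted p = 0.0678), where the call was lost.

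Calml4, a calmodulin-like protein, was a further gene with a rise in perinates and a fall in adults (1.34, adjusted p = 0.00652), as were Prxl2b (1.34), a prostamide synthase, and Dock4 (1.25), an activator of Rac, and all these calls held in each of the 12 fits that left out 1 array. The histone gene H3c15 had the largest positive difference among the called genes, 2.50 ± 0.49 (adjusted p = 0.0228), with 56, 89.9 and 90.8 on the perinate KO arrays, 21.5, 42.3 and 39.9 on the perinate WT arrays, 26.7, 33.2 and 77.8 on the adult KO arrays and 71.9, 107 and 128 on the adult WT arrays. Its perinate KO and adult KO arrays overlapped, the call was kept in 5 of 12 fits, and it was lost with dim values at the percentile (0.00316, adjusted p = 0.99) and with perinate KO array 1 alone (0.192). Among the calls in opposite directions, 3 went the other way, with a fall in perinates and a rise in adults: Ces5a, a carboxylesterase, Vwa3a and Chrnb2, a nicotinic receptor subunit. Ces5a had 129, 166 and 143 on the perinate KO arrays, 289, 206 and 171 on the perinate WT arrays, 807, 750.2 and 662 on the adult KO arrays and 454, 433 and 436 on the adult WT arrays. The KO and WT arrays did not overlap at either age, and the difference was -1.32 ± 0.21 (adjusted p = 0.0067; 0.0256 with perinate KO array 1 alone), against -1.17 for Vwa3a and -1.09 for Chrnb2. Vwa3a lost its call with dim values at the percentile (-0.26, adjusted p = 0.206).

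The 33 genes that rose in adults alone and the 6 that rose at both ages all had the larger rise in adults. Ctla4, an inhibitory receptor of T cells that binds CD80 and CD86, had 144, 163 and 163 on the perinate KO arrays, 98.9, 61.8 and 62.7 on the perinate WT arrays, 1147, 1245 and 997 on the adult KO arrays and 153, 171 and 156 on the adult WT arrays. The adult KO arrays lay far above all others, while the perinate KO arrays overlapped with the adult WT arrays. The rise was at least 1.41-fold in perinates, where the WT arrays were dim, and 7.04-fold in adults, and the difference was -1.71 ± 0.33 (adjusted p = 0.022). The call was lost without perinate WT array 5, adult KO array 2 or adult WT array 8 (adjusted p up to 0.067), and with perinate KO array 1 alone, where the difference was -1.83. Ctla4 was the single call among 15 costimulatory and coinhibitory molecules, and of 17 thymocyte and T cell markers 0 passed limma's test and 0 had an unadjusted p under 0.05, with a summed level of 4639 to 5247 on the perinate KO arrays, 5069 to 5607 on the perinate WT arrays, 3664 to 5289 on the adult KO arrays and 4084 to 6027 on the adult WT arrays, ranges that overlap.

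Rgr, a retinal opsin-like receptor, had 49.4, 74.6 and 94.8 on the perinate KO arrays, 58.9, 68 and 68.2 on the perinate WT arrays, 289, 293 and 199 on the adult KO arrays and 62.6, 66.7 and 80.8 on the adult WT arrays. All 3 adult KO arrays lay above the rest, and the other 3 groups overlapped. Those groups were dim, the perinatal effect did not pass the test (adjusted p = 0.698), the rise in adults was at least 2.34-fold, and the difference was -1.76 ± 0.29 (adjusted p = 0.00723; 0.00704 with perinate KO array 1 alone). Acot12, an acetyl-CoA hydrolase of liver, had 123, 114 and 136 on the perinate KO arrays, 99.2, 99 and 111 on the perinate WT arrays, 591, 511 and 447 on the adult KO arrays and 126, 149 and 170.4 on the adult WT arrays. The adult KO arrays again stood apart, with a 3.48-fold rise in adults and a perinatal effect that did not pass the test (adjusted p = 0.157). The difference was -1.53 ± 0.19 (adjusted p = 0.00231; 0.0167 with perinate KO array 1 alone).

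Ptchd4, a patched-domain protein, rose at both ages, with 183, 219 and 203 on the perinate KO arrays, 116, 132 and 142 on the perinate WT arrays, 889.6, 781 and 742 on the adult KO arrays and 199.7, 258 and 254 on the adult WT arrays. The KO arrays lay above WT at each age and the rise was 1.55-fold in perinates and 3.40-fold in adults, with a difference of -1.13 ± 0.17 (adjusted p = 0.0053; 0.0177 with perinate KO array 1 alone). Cnr2, the cannabinoid receptor of immune cells, rose in adults alone (-1.42, adjusted p = 0.0113), as did Ostn, osteocrin of muscle and bone (-1.13, adjusted p = 0.00847), and Antxr2, an anthrax toxin receptor (-0.92, adjusted p = 0.00652). Rgr, Acot12, Ptchd4, Cnr2, Ostn and Antxr2 kept their calls in all 12 fits that left out 1 array. Tafa1, a secreted protein of brain, differed by -1.22 (adjusted p = 0.0361) and I830077J02Rik by -1.47 (adjusted p = 0.0416), kept in 5 and 2 of the 12. Serpinb7 (-1.32), Ccdc38 (-1.23) and Vsig1 (-1.23) rose in adults alone and kept their calls in 2, 7 and 2 of the 12, and with dim values at the percentile Serpinb7 had -0.76 (adjusted p = 0.0417).

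A fall that was deeper in perinates was called for 9 genes that fell at both ages and 16 that fell in perinates alone. Cxcl13, the chemokine that draws B cells, had 244, 133 and 142 on the perinate KO arrays, 2904, 2733 and 2722 on the perinate WT arrays, 552, 605 and 319 on the adult KO arrays and 2384, 2601 and 2557 on the adult WT arrays. The WT arrays lay far above the KO arrays at both ages, and the perinate KO arrays lay below the adult KO arrays. The fall was 16.8-fold in perinates and 5.30-fold in adults, with a difference of -1.66 ± 0.38 (adjusted p = 0.0446). The call was kept in only 2 of the 12 fits that left out 1 array, those without perinate KO array 1 or adult KO array 3 (adjusted p up to 0.108 in the others). With perinate KO array 1 alone the difference was -1.11 and the call was lost. Among 17 tested chemokines, Xcl1 and Cxcl13 were called, in opposite directions. Gm7982 is next to Cxcl13 on chromosome 5 and its difference has the other sign. The 9 tested B cell markers had 0 calls by limma (1 at an unadjusted p under 0.05), with a summed level of 4074 to 4285 on the perinate KO arrays, 3251 to 3719.9 on the perinate WT arrays, 4091 to 4674 on the adult KO arrays and 4132 to 4654 on the adult WT arrays.

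The promoters of Tdo2 and Cxcl13 are shown because these genes fell at both ages with differences of opposite sign. They were chosen after their values were seen. The 250 bases before the first listed start of each gene are from RefSeq, assembly GRCm38.p6, in the direction of the gene, with motif matches in capitals. The Tdo2 region is chr3:81975729-81975978 (minus strand) and the Cxcl13 region is chr5:95956689-95956938 (plus strand).
Tdo2: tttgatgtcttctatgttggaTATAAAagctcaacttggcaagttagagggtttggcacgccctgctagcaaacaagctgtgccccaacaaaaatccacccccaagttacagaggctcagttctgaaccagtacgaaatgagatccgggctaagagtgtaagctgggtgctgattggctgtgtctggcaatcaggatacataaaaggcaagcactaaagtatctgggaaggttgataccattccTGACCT
Cxcl13: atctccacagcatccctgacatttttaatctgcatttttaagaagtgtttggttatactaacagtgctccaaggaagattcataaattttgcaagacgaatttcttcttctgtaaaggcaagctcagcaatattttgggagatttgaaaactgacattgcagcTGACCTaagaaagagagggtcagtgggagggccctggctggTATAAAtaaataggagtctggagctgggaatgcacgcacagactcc
The letters TATAAA were searched on both strands, and so were CACGTG, the E-box, and AGGTCA, a nuclear receptor binding motif. Their matches do not overlap here. TATAAA begins 229 bases before the start in Tdo2 and 46 in Cxcl13, on the strand of the gene. AGGTCA is on the opposite strand in both, shown as TGACCT, from 6 bases before the start in Tdo2 and 87 in Cxcl13, and neither region holds CACGTG. Among 27025 promoters of this length, 13% hold TATAAA, 6.05% CACGTG and 13.8% AGGTCA, and among the 133 called genes with a promoter 15.8%, 7.52% and 12% do. These matches describe the letters of the regions only.

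Krt24, a keratin of differentiating epithelia, had 109.9, 81.9 and 75 on the perinate KO arrays, 549, 549 and 511 on the perinate WT arrays, 181, 165 and 169 on the adult KO arrays and 383, 472 and 390.1 on the adult WT arrays. KO lay below WT at both ages and the perinate KO arrays were the lowest. Its difference was -1.34 ± 0.21 (adjusted p = 0.00652; 0.0905 with perinate KO array 1 alone). Krt222, its neighbour on chromosome 11, rose in adults alone and had a difference of the same sign (-0.79, adjusted p = 0.0453). Col1a1, a chain of type I collagen, had 171, 182 and 168 on the perinate KO arrays, 421, 396 and 374 on the perinate WT arrays, 225, 194 and 227 on the adult KO arrays and 295, 279.8 and 281 on the adult WT arrays, with a difference of -0.78 ± 0.13 (adjusted p = 0.00821). With perinate KO array 1 alone the difference was -0.803 and the call was lost. Ctse, cathepsin E, fell at both ages with a difference of -1.11 (adjusted p = 0.0193), lost without perinate KO array 3 or adult WT array 8 (adjusted p up to 0.0574) and with dim values at the percentile (-0.32, adjusted p = 0.367). Cntfr, a receptor of ciliary neurotrophic factor (-1.0), and Hoxc8, a patterning homeobox factor (-0.80), kept their calls in 2 and 1 of the 12 fits.

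Among 17 tested fibroblast genes 4 were called, compared with 1.21% of all genes: Col1a1, Postn (-1.19), a matrix protein, Dcn (-0.70), the proteoglycan decorin, and Fn1 (0.84), fibronectin, the last in the other direction. Postn and Dcn rose in adult KO cells (1.53 and 1.11), and Fn1 fell there (-1.28), so members of the list did not move together. The list's median was -0.27 and its summed level was 15697 to 16677 on the perinate KO arrays, 16259 to 17068 on the perinate WT arrays, 15313 to 15590.0 on the adult KO arrays and 13981 to 14956 on the adult WT arrays. The part of these cells in the calls was not tested.

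Cyp17a1, the steroid 17-hydroxylase of adrenal and gonad, had 65.8, 78.4 and 80 on the perinate KO arrays, 274, 343 and 297 on the perinate WT arrays, 603, 382 and 329 on the adult KO arrays and 416, 416 and 518 on the adult WT arrays. The perinate KO arrays lay below all others, and in adults KO and WT overlapped. The perinate KO arrays were dim, the fall was at least 3.09-fold in perinates, the effect was -0.08 in adults (adjusted p = 0.81), and the difference was -1.95 ± 0.27 (adjusted p = 0.00462; 0.0169 with perinate KO array 1 alone). Tgm3, a transglutaminase that crosslinks the cornified envelope, had 100.1, 114 and 103 on the perinate KO arrays, 179, 205 and 199 on the perinate WT arrays, 631, 502 and 414 on the adult KO arrays and 415, 419 and 447 on the adult WT arrays. It too fell in perinates alone, with a difference of -1.13 ± 0.17 (adjusted p = 0.00652; 0.031 with perinate KO array 1 alone).

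Nr1d1, the clock repressor Rev-erb alpha, had 392, 231 and 216 on the perinate KO arrays, 950.0, 831 and 779 on the perinate WT arrays, 1239, 878 and 688 on the adult KO arrays and 875, 561 and 629 on the adult WT arrays. The perinate KO arrays lay below the rest, the spread among adult arrays was wide, and the difference of -2.08 ± 0.43 (adjusted p = 0.0286) was kept in 5 of 12 fits and lost with perinate KO array 1 alone (0.229). It was lost without perinate KO array 2 or 3, perinate WT array 5, adult KO array 1 or 2, or adult WT array 7 or 8 (adjusted p up to 0.075). Of 16 tested clock genes, a list added after the values were seen, it was the single call and the median was -0.36. The time of day at which cells were collected is not in the labels. Plcb2, a phospholipase of taste and tuft cell signalling (-1.31), and Akr1c19 (-1.03), a relative of Akr1c18 close to it on chromosome 13 but with the opposite sign, kept their calls in 2 and 2 of 12 fits, and both calls were lost with dim values at the percentile (-0.95, adjusted p = 0.0633 for Plcb2; -0.35, adjusted p = 0.389 for Akr1c19). Plcb2 was the single call among 20 tuft cell markers, with a median of -0.30.

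In perinates alone, 25 called genes rose in KO cells. Fbxo5, an inhibitor of the anaphase-promoting complex, had 255, 235 and 261 on the perinate KO arrays, 112, 131 and 108 on the perinate WT arrays, 136, 167 and 127 on the adult KO arrays and 129.6, 136 and 123 on the adult WT arrays. The perinate KO arrays were the highest, and the other groups overlapped in part. The perinatal rise was 2.14-fold, and the difference 0.96 ± 0.16 (adjusted p = 0.00747). With perinate KO array 1 alone the difference was 0.994 and the call was lost. Of 39 tested cell cycle genes 0 passed limma's test of the difference and 7 had an unadjusted p under 0.05, although 34 lay above 0 with a median of 0.23. In perinates 18 of the 39 rose in KO cells, against 1 in adults, and an effect called at 1 age and not at the other is not shown to differ.

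The histone gene H3c15, described above, was not on the list of replication-dependent histone genes. The 16 tested genes of that list all had a positive difference, with a median of 0.71. Of them 3 were called: H3c4 (1.78, adjusted p = 0.0446), H2bc8 (1.54, adjusted p = 0.0453) and H4c8 (0.83, adjusted p = 0.0446). Each kept its call in 2 of the 12 fits, and each was lost with perinate KO array 1 alone (adjusted p from 0.116 to 0.306). H3c4 (1.62, adjusted p = 0.0513) and H4c8 (0.47, adjusted p = 0.0531) also lost theirs with dim values at the percentile. These genes lie in clusters of near-identical copies, and probes may share signal between them. Havcr1, a kidney injury receptor (1.33), its neighbour Timd2, a ferritin receptor (1.20), and Rnf183, a ubiquitin ligase of kidney (1.22), rose in perinates alone and kept their calls in 3, 3 and 2 of 12. Havcr1 lost its call with dim values at the percentile (0.11, adjusted p = 0.645).

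The genes of antigen presentation and the regulators of thymic epithelium had no called difference, while 2 cortical epithelial markers did. Of 15 tested MHC class II and 12 tested MHC class I presentation genes 0 were called by limma (1 and 3 at an unadjusted p under 0.05), with medians of 0.05 and 0.23. Of 23 regulators of thymic epithelium 0 were called (0 at an unadjusted p under 0.05), though 18 lay above 0, with a median of 0.117. Fezf2, another inducer of self-antigens, had a difference of 0.46 (95% interval -0.01 to 0.93, adjusted p = 0.3), and Foxn1, the master factor of thymic epithelium, averaged 2873 ± 672 in perinate KO, 2346 ± 1092 in perinate WT, 2440.2 ± 257 in adult KO and 2656 ± 253 in adult WT cells. Of 29 proteins reported to assist Aire, 0 were called (2 at an unadjusted p under 0.05) and the median was 0.02. Of 20 cortical epithelial markers Dll4 and Enpep were called. Enpep encodes Ly51, on which the sort excluded cells, and had 109, 92 and 117 on the perinate KO arrays, 173, 211 and 177 on the perinate WT arrays, 90.4, 85.4 and 79.9 on the adult KO arrays and 226, 307 and 267 on the adult WT arrays, with a difference of 0.81 (adjusted p = 0.042) that was kept in 3 of 12 fits and lost with perinate KO array 1 alone (0.128) and with dim values at the percentile (0.59, adjusted p = 0.0636).

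Stress genes had 0 calls by limma as well, with an unadjusted p under 0.05 for 1 of 25 immediate-early genes and 0 of 14 heat-shock chaperones. Of the immediate-early genes, 4 lay above 0 and the median was -0.38; Egr1 had -0.75 (adjusted p = 0.224). The 14 chaperones all lay above 0, with a median of 0.29; Hsp90aa1 had 0.41 (adjusted p = 0.489). The medians lay on opposite sides of that of all genes, and no test of the lists was made. Among 7 erythroid markers 0 were called (2 at an unadjusted p under 0.05), and their summed level was 1046 to 1319 on the perinate KO arrays, 1823 to 2136 on the perinate WT arrays, 1243 to 1378 on the adult KO arrays and 2502 to 2916 on the adult WT arrays, lower in KO cells at both ages. Car1 averaged 64 in perinate KO, 492 in perinate WT, 55.7 in adult KO and 953 in adult WT cells. Hbb-y averaged 30.7, 216, 29.6 and 355 in the same order. At each age 5 of the 7 were called lower in KO cells, and 1 was called higher in perinates. The lower sum therefore does not by itself speak to the number of erythroid cells. Endothelial markers had 0 calls among 11 genes (1 at an unadjusted p under 0.05).

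The genes of the microRNAs Mir185 and Mir23a were called higher in adult KO cells alone, with differences of -0.65 (adjusted p = 0.032) and -0.80 (adjusted p = 0.0478). Their probe sets measure the transcript of the microRNA gene and not the mature form. The mature sequences are from RefSeq, GRCm38.p6, with the seed (bases 2 to 8) in capitals, and are shown to identify the regulators. The other mature form of Mir185 was not found in the reference used, so its sequence and seed are not shown. No seed is shared among the sequences shown, and the missing form was not compared.
mmu-miR-185-3p: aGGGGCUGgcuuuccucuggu
mmu-miR-23a-5p: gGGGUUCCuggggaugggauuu
mmu-miR-23a-3p: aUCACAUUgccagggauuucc
Mir185 had 128, 138 and 132 on the perinate KO arrays, 159.7, 144 and 169 on the perinate WT arrays, 162, 175 and 169 on the adult KO arrays and 136, 116 and 130.0 on the adult WT arrays. The adult KO arrays lay above the adult WT arrays and the perinate KO arrays below the perinate WT arrays. Each call was kept in 2 of the 12 fits and lost with perinate KO array 1 alone (adjusted p = 0.13 for Mir185 and 0.313 for Mir23a). Mir23a also lost its call with dim values at the percentile (-0.38, adjusted p = 0.0786).

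Most single calls were lost in at least 1 of the 12 fits that left out 1 array, although the difference itself could change little. Dll4 kept its call in 1 of these fits, with differences from 0.636 to 0.821. Each such fit has 10 residual degrees of freedom, against 11 with all arrays. Of the 167 genes, 45 kept their call in each of the 12 fits that left out 1 array, and 131 with dim values at the percentile. With perinate KO array 1 alone all 167 kept their sign. They had been called in a fit that holds this array and all the other groups, so the kept sign is no further test. The number of calls was 52 without adult WT array 8, 58 without perinate WT array 5, 60 without perinate KO array 3, 62 without adult KO array 2, 73 without adult WT array 7, 82 without perinate KO array 2, 86 without adult WT array 6, 95 without adult KO array 1 and 101 without adult KO array 3. Other processing settings, such as quantile normalization and the replicate block, are described below. Across these and the fits above, 17 genes kept their call in every fit in which they were tested. The stricter thresholds of 2-fold and of an adjusted p under 0.01 were not counted. The genes were Tdo2, Cst10, Nppa, Elobl, 1810065E05Rik, Smpd2, Snord33, Cyp2j13, Umod, Ces5a, Chrnb2, Rgr, Acot12, Ostn, Ptchd4, Cyp17a1 and Tgm3.

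**Figure D4:**
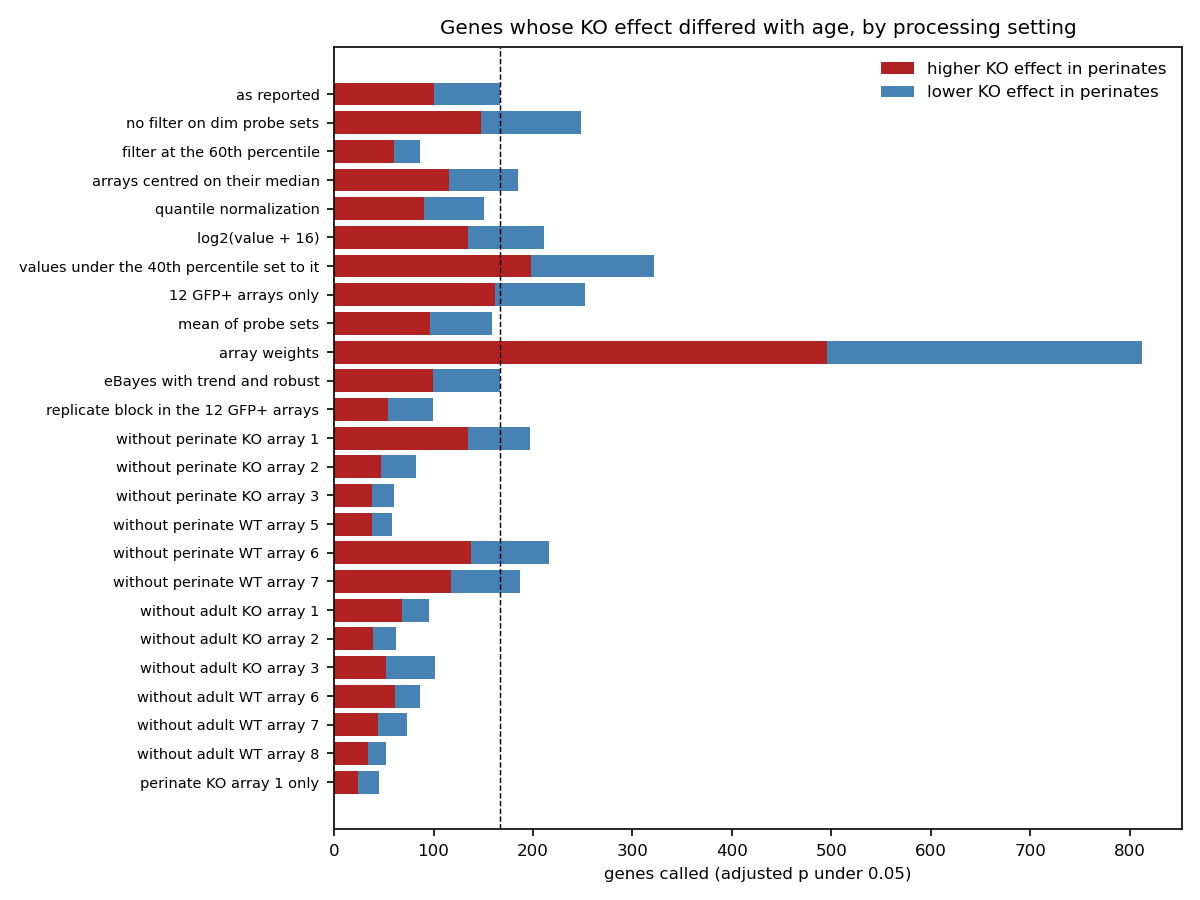
Number of called genes with a positive and with a negative difference of effects under each processing setting, with the leave-one-out fits below. The counts at 2-fold or more and at an adjusted p under 0.01 are not drawn. Positive calls outnumber negative calls in every setting shown, the total in these lies between 45 and 812, and the dashed line marks 167.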

How the data were processed

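RNA of sorted GFP+ and GFP- cells was measured on Affymetrix Mouse Gene 1.0 ST arrays, 1 per sample. The deposited values are linear intensities, for which the authors used RMA and Affymetrix Power Tools, per the submitters' processing notes. Versions were not given in the sources used here. RMA summarises a whole transcript, so probes of near-identical genes can share signal. The number of arrays limits the precision.

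Of 24922 probe sets, 21425 have 1 gene symbol in the platform annotation, 1399 several and 2098 none. Of the first, 21347 were found in RefSeq (GRCm38.p6), and 0 symbols needed an update. They name 19752 genes, and for 921 genes with several probe sets the one with the highest mean over all 17 arrays was used. The deposited intensities were put on the log2 scale without a pseudocount. A gene was tested if it lay above the 40th percentile on at least 2 of the 17 arrays, GFP- arrays included (13842 genes). Means of the 6 groups were fitted to all 17 arrays by lmFit, contrasts.fit and eBayes of limma 3.58.1 (R 4.3.3). The model had 11 residual degrees of freedom, the prior added 5.52, and the median SE of the difference of effects was 0.184. Tests are two-sided, adjusted by Benjamini-Hochberg over 13842 genes, with calls at an adjusted p under 0.05. The fit was tested on simulated data.

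The comparison, the 41 gene lists and the rule for named genes were chosen with earlier results of these data known. The rule took the 15 largest differences in each direction, the 4 largest of each pattern of KO calls, called list members and the 8 genes with effects most alike. Genes named outside it (Nppa, Smpd2, 1810065E05Rik, Krt222, Timd2, Fbxo5, Ostn, Antxr2, Calml4, Prxl2b, Dock4, Vwa3a, Chrnb2, Mcpt2, the microRNAs, the small nucleolar RNAs, the markers used to check the sort and the genes of the closing observations) were chosen after their values were seen, as were the clock, respiratory chain and small nucleolar RNA lists. No gene set was tested.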

Additional observations from a re-analysis of the deposited data

Results flagged for a closer look

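The test of the difference between the ages marked 167 genes as having a KO effect that differs between perinates and adults. Groups of 3 arrays are too small for a test of a single far array. The difference of effects (log2, perinate minus adult) of each called gene named above is given here by the pattern of its KO effects. Lower in KO cells at both ages and further in adults were Tdo2 (2.25), Elobl (1.73), Akr1c18 (1.62), Aspn (1.55), Lipf (1.49), Mcpt4 (1.49), Cst10 (1.46), Klk5 (1.42), Calb2 (1.41), Nppa (1.39), Iapp (1.30), Mcpt2 (1.12), 1810065E05Rik (1.10), Fabp2 (1.08), Tff3 (1.05), Xcl1 (0.99), Cps1 (0.99), Cck (0.98), Actc1 (0.97), Apob (0.95), Pgc (0.91), Tff1 (0.87), Fn1 (0.84), Enpep (0.81) and Bpifb2 (0.70). Lower at both ages and further in perinates were Cxcl13 (-1.66), Krt24 (-1.34), Ctse (-1.11), Cntfr (-1.0), Hoxc8 (-0.80) and Col1a1 (-0.78). Lower in adults alone were Gm7982 (1.61), Abca13 (1.55), Mrc1 (1.33), Cd109 (1.27), Lypd8 (1.25), Smpd2 (0.84), Vil1 (0.73) and Dll4 (0.72). Lower in perinates alone were Nr1d1 (-2.08), Cyp17a1 (-1.95), Plcb2 (-1.31), Tgm3 (-1.13) and Akr1c19 (-1.03). Higher in adults alone were Rgr (-1.76), Acot12 (-1.53), Cnr2 (-1.42), Serpinb7 (-1.32), Ccdc38 (-1.23), Vsig1 (-1.23), Postn (-1.19), Ostn (-1.13), Antxr2 (-0.92), Mir23a (-0.80), Krt222 (-0.79) and Mir185 (-0.65). Higher in perinates alone were H3c4 (1.78), H2bc8 (1.54), Havcr1 (1.33), Rnf183 (1.22), Snora69 (1.21), Timd2 (1.20), Snord33 (1.16), Fbxo5 (0.96), Atp5e (0.89), H4c8 (0.83) and Snord22 (0.80). Higher at both ages were Ctla4 (-1.71), I830077J02Rik (-1.47), Tafa1 (-1.22), Ptchd4 (-1.13) and Dcn (-0.70). Called in opposite directions were H3c15 (2.50), Irx4 (2.17), Cyp2j13 (2.11), Umod (1.57), Calml4 (1.34), Prxl2b (1.34), Ces5a (-1.32), Dock4 (1.25), Vwa3a (-1.17), Chrnb2 (-1.09), Cox6a1 (0.91), Uqcrq (0.82), Dgkz (0.74) and Uqcr10 (0.65).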

How the results depend on the processing

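Limits lie in the number of arrays, in dim KO levels and in perinate KO arrays 2 and 3, which lack Y-linked signal. Against 167 calls (100 positive, 67 negative), the counts were 248 (148, 100) with no filter on dim probe sets, 86 (60, 26) with a filter at the 60th percentile, 322 (198, 124) with values under the 40th percentile set to it, 252 (162, 90) with the 12 GFP+ arrays alone, 812 (496, 316) with array weights, 45 (24, 21) with perinate KO array 1 alone, 75 (46, 29) at 2-fold or more and 38 (26, 12) at an adjusted p under 0.01. Leaving out 1 array gave 52 to 216 calls (34 to 138 positive, 18 to 78 negative), and omitting perinate WT array 6 or 7 or perinate KO array 1 gave 216, 187 and 197. Counts within 1.5 times of the first came from median centring (185), quantile normalization (151), log2(value + 16) (211), the mean of probe sets (159) and a trended robust prior (167). Positive calls made up 51.5% to 71.6% over all these fits. The cause of these changes was not tested. Arrays share replicate numbers across ages, and the adult WT GFP+ and GFP- arrays share theirs as well. The labels do not say whether those fractions came from the same sorts, and that pairing was not checked. Across ages, deviations of same-numbered GFP+ arrays correlated at 0.0488, 0.039 and 0.0592 in KO and 0.033 and 0.19 in WT cells. Not every array correlated best with its own number, and the numbers were not taken as pairs. With the replicate number as a block in the 12 arrays, 99 genes were called (54 positive, 45 negative), of which 59 were among the 167. Over the named genes, 489 called values under other settings lost the call with the direction kept, 28 gained one and 0 called values reversed. Another 2284 kept their side of the threshold, 69 of them uncalled values that changed sign, and 32 uncalled values moved by more than their SE, 2 with a change of sign. Of the counts of called members per list, 851 stayed within 1.5 times of the first and 293 moved further. List medians were not compared between settings.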

Other observations

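Respiratory chain genes lay mostly above 0. Of 79 tested genes, on a list added after the values were seen, 65 had a positive difference of effects, the median was 0.23 against 0.02 over all genes, and 4 were called by limma, all positive, compared with 0.722% of all genes called positive: Cox6a1 (0.91, adjusted p = 0.0107), a subunit of cytochrome c oxidase, Uqcrq (0.82, adjusted p = 0.0251) and Uqcr10 (0.65, adjusted p = 0.0333), subunits of complex III, and Atp5e (0.89, adjusted p = 0.0292), a subunit of ATP synthase. Cox6a1 had 1233, 1131 and 1133 on the perinate KO arrays, 906, 874 and 695 on the perinate WT arrays, 1092, 959.5 and 932 on the adult KO arrays and 1279, 1258 and 1395 on the adult WT arrays. KO lay above WT in perinates and below WT in adults without overlap, and the call was kept in all 12 fits that left out 1 array. With perinate KO array 1 alone the difference was 0.989 and the call was lost. Uqcrq, Atp5e and Uqcr10 kept theirs in 8, 6 and 3 of the 12.

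Small nucleolar RNAs, which guide the modification of ribosomal RNA, were likewise mostly above 0: of 42 tested, also listed after the values were seen, 36 were positive, the median was 0.52 and 3 were called, all positive (0.722% of all genes): Snord33 (1.16, adjusted p = 0.00509), Snora69 (1.21, adjusted p = 0.0479) and Snord22 (0.80, adjusted p = 0.0479). Snord33 had 325, 266 and 374 on the perinate KO arrays, 179.5, 186 and 176 on the perinate WT arrays, 234, 223 and 253 on the adult KO arrays and 332, 299 and 273 on the adult WT arrays and kept its call in all 12 fits and with perinate KO array 1 alone (adjusted p = 0.0146), while Snora69 and Snord22 kept theirs in 0, and Snord22 was also lost with dim values at the percentile (0.34, adjusted p = 0.169). In perinates 14 of the 42 rose in KO cells, compared with 13.5% of all genes, and in adults 0 did, compared with 9.06%. An effect called at 1 age and not at the other is not shown to differ.

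Probe sets with several gene symbols or none were fitted apart. Of 2104 tested, 36 were called by limma, 29 with a positive and 7 with a negative difference, and 383 had an unadjusted p under 0.05. 1 unnamed probe set had the largest difference of these, 2.07 (adjusted p = 0.00191), and the probe sets shared by Cma2 and Mcpt9, mast cell proteases like Mcpt2 and Mcpt4, had 1.25 and 0.83. Pairs of probe sets of 1 gene mostly had the same sign, but those of Dgkz, a diacylglycerol kinase called at 0.74, had 0.74 and -0.48.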
